A study of Mus musculus with 12 samples.

Results

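The 42 genes described here encode the proteins that copy nuclear DNA and the enzymes that supply its deoxynucleotide building blocks. They were taken as a list of symbols, each represented by its brightest probe set (the one with the highest mean over 12 arrays) among probe sets that name 1 gene in the platform annotation. All 42 were found, out of 19937 genes measured in this way and 34760 probe sets in all. The arrays, of the Affymetrix Mouse Gene 1.0 ST type, each carried liver RNA of a single male mouse on the C57BL6/JJmsSlc background, and every group held 3 mice. The mice were 4 weeks old per the sample labels. WT natural mating and WT IVF mice carried intact Atf7, and Atf7-/- natural mating and Atf7-/- IVF mice lacked the gene in the whole body. The IVF mice came from superovulated females, fertilization in culture medium and transfer of cleaved embryos into the oviducts of pseudopregnant ICR females, whereas the natural mating mice were born to mothers of their own genotype. Thus embryo culture, hormone treatment and a foster mother of another strain came together in the IVF groups and cannot be told apart. Within a group no mother or recipient gave more than 1 liver, and whole liver was used, so hepatocytes and the other liver cells were measured together.

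DNA replication starts where the origin recognition complex, with CDC6 and CDT1, loads the MCM helicase onto DNA. CDC45 and the GINS complex turn that helicase on, primase and DNA polymerase alpha lay down primers, and DNA polymerases delta and epsilon copy the strands while held by the PCNA clamp that replication factor C loads. Ribonucleotide reductase, thymidylate synthase and thymidine kinase supply the deoxynucleotides. Most of these genes are transcribed mainly in cycling cells, many of them under E2F factors, and the liver of a young mouse still grows by hepatocyte division before it becomes largely quiescent.

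Values are log2 expression values, normalized by the authors with robust multiarray averaging (RMA). A difference of 1 on this scale is a doubling. The array medians ran from 6.22 to 6.34, and arrays of a group correlated with each other at 0.980 to 0.990 over all probe sets. Atf7 itself was the check of the labels. Its probe set 10433032 read 8.94, 8.81 and 8.58 in naturally conceived WT mice and 8.18, 8.38 and 7.56 in WT mice from IVF. It read 5.82, 6.11 and 5.94 in naturally conceived Atf7-/- mice and 5.34, 5.68 and 5.52 in those from IVF, so every Atf7-/- array lay below every WT array. The brighter Atf7 probe set, 10433034, read between 8.28 and 9.27 on all 12 arrays, over which the genotypes overlapped. Within natural mating and within IVF, its Atf7-/- arrays lay below the WT arrays, by less than in the other probe set. Of the 42 genes, 5 (Orc1, Cdc6, Gmnn, Gins3 and Pole2) had a mean below that of the middle probe set of the array. RMA compresses the fold changes of such dim probe sets.

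Promoter sequence was read from the RefSeq table of build GRCm38.p6, which holds 34 of the 42 genes, over 250 bases before and 50 after the transcription start. On either strand, 14 of the 34 promoters held at least 1 of the E2F-type words TTTCCCGC, TTTCGCGC, TTTGCCGC and TTTGGCGC, against 3.48% of the promoters of 15613 measured genes (a gene with several entries counts if any holds a word). The 14 were those of Orc1, Cdc6, Cdt1, Mcm3, Mcm5, Mcm6, Mcm7, Gins3, Pola1, Pold1, Pold3, Pole2, Rfc3 and Lig1. CCAAT, the word read by NF-Y, stood in 22 of 34 against 41.7% of all promoters. TGACGT, the core of the cAMP response element that ATF factors can bind, stood in 8 of 34 against 10.2%, and the full site TGACGTCA in 1 of 34 against 2.72%. The full site contains the core. The 160 bases upstream of the start are shown for Mcm5 and Mcm6, whose promoters held E2F-type words, and for Pcna, Rfc4, Rfc5 and Rrm1, which were higher in WT IVF and whose promoters held none. Capitals mark E2F-type words, CCAAT or its reverse complement ATTGG, and TGACGT or TGACGTCA. Capital runs longer than 8 bases are overlapping words. All sequences are written 5′ to 3′ in the direction of the gene. The positions are Mcm5 chr8:75109349-75109508 (plus strand), Mcm6 chr1:128359706-128359865 (minus strand), Pcna chr2:132253181-132253340 (minus strand), Rfc4 chr16:23127731-23127890 (minus strand), Rfc5 chr5:117389024-117389183 (minus strand), Rrm1 chr7:102441535-102441694 (plus strand).
Mcm5: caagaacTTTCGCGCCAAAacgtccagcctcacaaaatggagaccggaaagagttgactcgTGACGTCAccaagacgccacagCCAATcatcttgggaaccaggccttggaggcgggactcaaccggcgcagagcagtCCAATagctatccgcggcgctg
Mcm6: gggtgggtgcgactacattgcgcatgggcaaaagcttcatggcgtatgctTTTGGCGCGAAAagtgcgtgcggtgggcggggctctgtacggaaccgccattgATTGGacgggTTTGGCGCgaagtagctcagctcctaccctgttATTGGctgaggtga
Pcna: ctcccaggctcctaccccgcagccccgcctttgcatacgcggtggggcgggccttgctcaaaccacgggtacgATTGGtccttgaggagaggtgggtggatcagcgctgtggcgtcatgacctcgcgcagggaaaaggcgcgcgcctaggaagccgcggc
Rfc4: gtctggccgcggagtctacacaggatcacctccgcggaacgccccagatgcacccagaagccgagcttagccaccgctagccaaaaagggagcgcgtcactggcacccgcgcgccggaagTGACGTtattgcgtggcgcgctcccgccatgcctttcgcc
Rfc5: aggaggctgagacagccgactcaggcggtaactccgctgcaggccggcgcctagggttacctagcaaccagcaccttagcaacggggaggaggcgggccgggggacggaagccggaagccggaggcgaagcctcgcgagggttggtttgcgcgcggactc
Rrm1: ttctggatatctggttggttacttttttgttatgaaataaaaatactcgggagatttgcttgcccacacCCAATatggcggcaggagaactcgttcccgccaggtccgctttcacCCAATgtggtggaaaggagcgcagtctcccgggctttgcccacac
The Mcm5 promoter is the one with the full site TGACGTCA, and Rfc4 is the one of the 6 WT IVF-higher genes with a promoter entry that held the core. None of these 6 (Orc6, Prim1, Rfc4, Rfc5, Pcna and Rrm1) held an E2F-type word, and 4 held CCAAT. A match is a description of letters and not a measured binding site.

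The replication genes were highest in WT IVF. The mean deviation of the 42 genes from their 12-array means was 0.15, 0.36 and 0.20 on the WT IVF arrays and -0.39, -0.06 and -0.25 on the WT natural mating arrays, so the WT groups did not overlap. The Atf7-/- natural mating arrays, at -0.08, -0.11 and 0.06, lay below all WT IVF arrays and overlapped WT natural mating. The Atf7-/- IVF arrays read -0.21, 0.48 and -0.15, and replicate 2 of that group was the highest of all 12 arrays. By group mean, WT IVF was the highest group for 31 of the 42 genes, Atf7-/- natural mating for 7, Atf7-/- IVF for 3 and WT natural mating for 1. WT natural mating was the lowest group for 27 genes, Atf7-/- natural mating for 11, Atf7-/- IVF for 4 and WT IVF for 0. In whole liver, a smaller number of replicating cells and less of these RNAs per cell cannot be told apart.

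**Figure D1:**
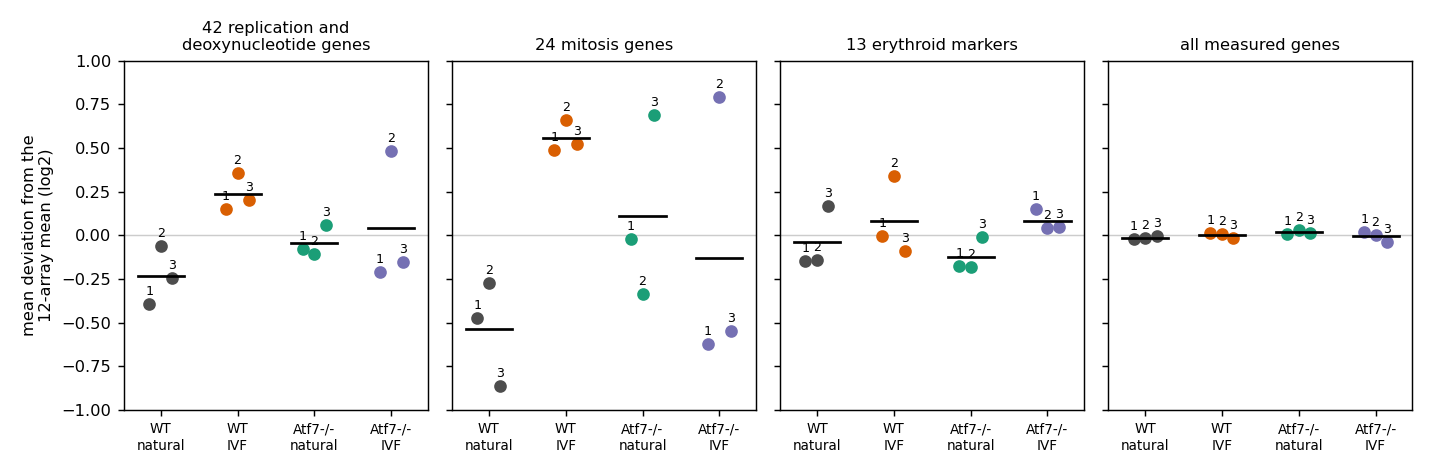
Mean deviation of gene lists from their 12-array means (log2, vertical axis) on each array, by group, for the 42 replication and deoxynucleotide genes, 24 mitosis genes, 13 erythroid markers and all 19937 genes. Points are arrays, numbered by replicate, and bars are group means. The 42 genes read 0.15 to 0.36 in WT IVF and -0.39 to -0.06 in WT natural mating, and replicate 2 of Atf7-/- IVF stood at 0.48.

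**Figure D2:**
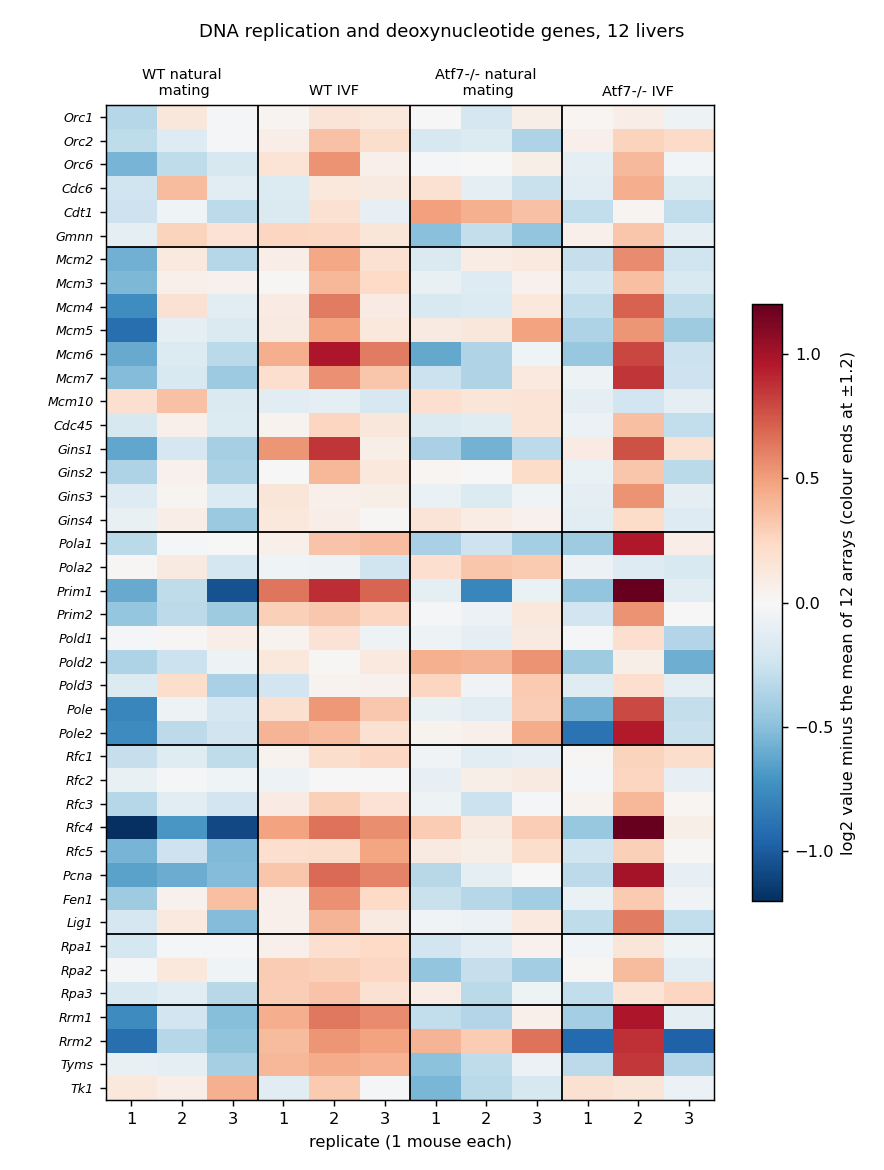
Log2 value minus the 12-array mean (colour, red higher and blue lower, ending at ±1.2) for the 42 genes (rows, in blocks by role from origin licensing to deoxynucleotide supply) on 12 arrays (columns, 3 per group). WT IVF columns are mostly red, WT natural mating columns mostly blue, and within Atf7-/- IVF the red column is replicate 2, the highest of its group in 38 of 42 genes.

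IVF in WT mice raised 8 of the 42 genes and lowered 0. These were Rfc4, Prim1, Pcna, Rrm1, Gins1, Rfc5, Prim2 and Orc6, with log2 fold changes from 0.60 to 1.67. A gene was called higher or lower where its log2 fold change was 0.6 or more in size and limma's adjusted p (Benjamini-Hochberg, over all 34760 probe sets) did not exceed 0.05. Of the 19937 genes 3.27% were called higher and 0.953% lower in this comparison. The fold change was above 0 for 39 of 42 genes, with a median of 0.40 against -0.02 over all genes. All 3 WT IVF arrays lay above all 3 WT natural mating arrays for 24 of the 42 genes and below for 0, while 16.9% of all genes lay wholly above and 15.1% wholly below.

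**Figure D3:**
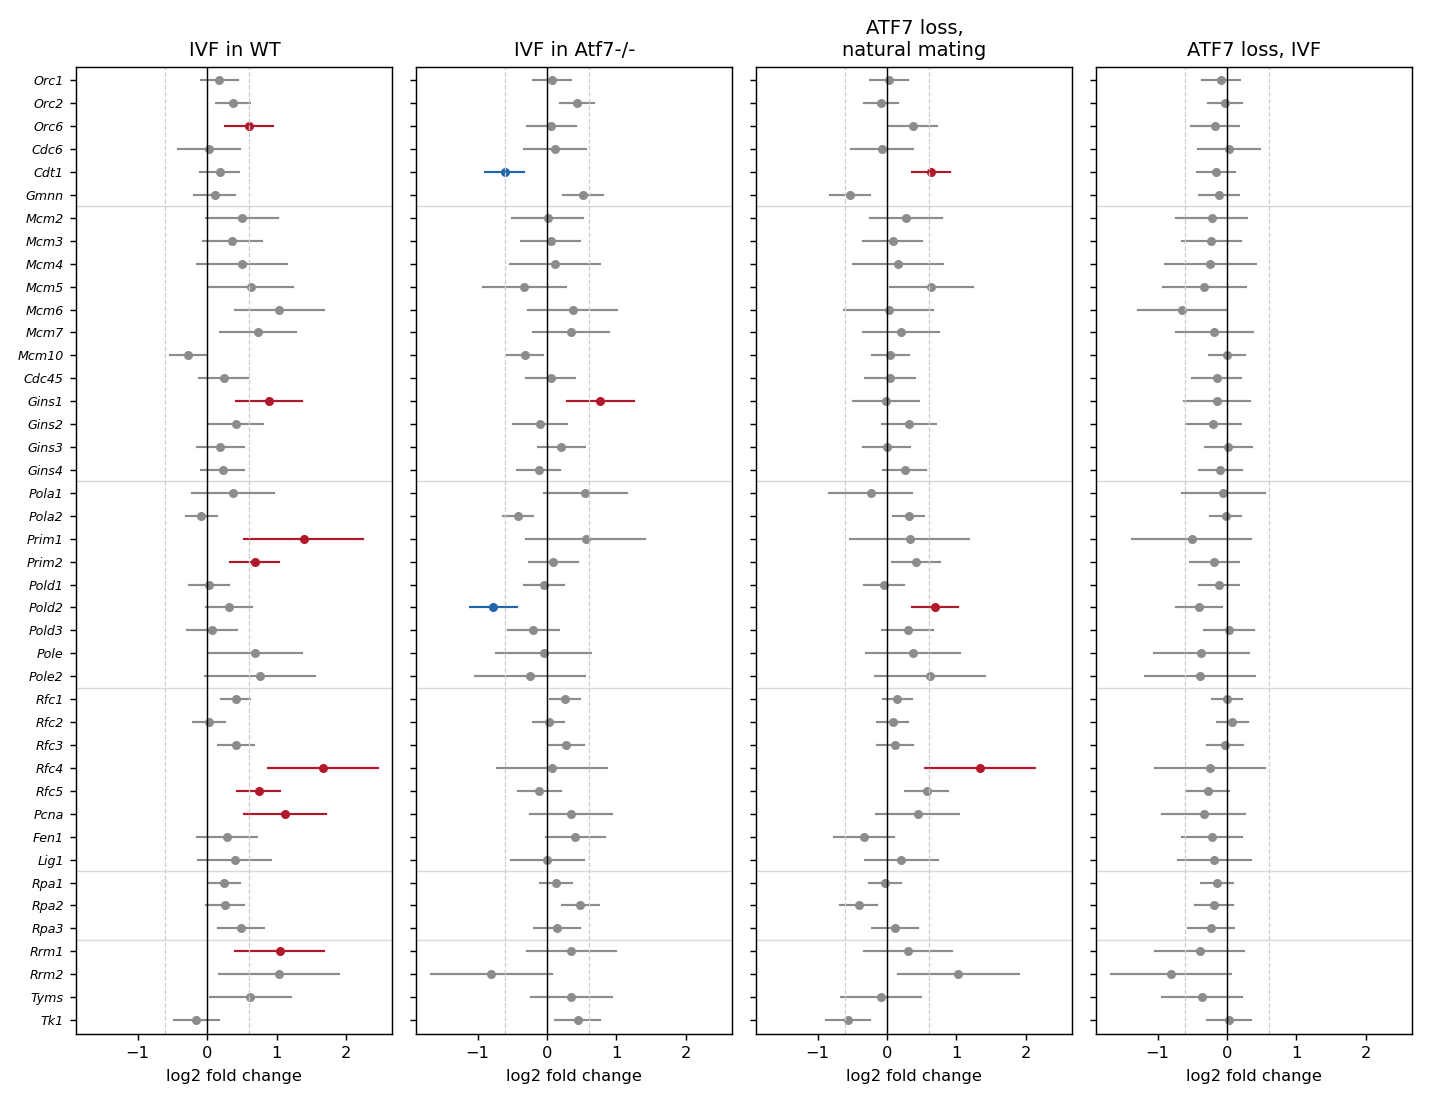
Log2 fold change (point, horizontal axis) with its 95% interval from limma (line) for the 42 genes in 4 comparisons: IVF against natural mating in WT and in Atf7-/-, and Atf7-/- against WT with natural mating and with IVF. Red marks genes called higher, blue genes called lower, grey all others, and dashed lines stand at ±0.6. IVF in WT has 8 red genes, IVF in Atf7-/- 1 red and 2 blue, ATF7 loss with natural mating 3 red and ATF7 loss with IVF 0.

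In the clamp and its loader, Rfc4 had the largest fold change of the 42 genes in this comparison. Rfc4, a small subunit of the loader, read 5.81, 6.65 and 6.27 in WT natural mating and 7.83, 8.0 and 7.90 in WT IVF. The log2 fold change was 1.67 (SE 0.36, adjusted p = 0.0191), a 3.18-fold rise. Pcna, the sliding clamp itself, went from 9.22, 9.27 and 9.34 to 10.20, 10.54 and 10.46 (log2 fold change 1.12, SE 0.27, adjusted p = 0.0288). Both Pcna groups were tight, and the gap between them was wider than either group's range. Rfc5, another loader subunit, read 8.12, 8.43 and 8.15 and then 8.88, 8.89 and 9.15 (0.74, SE 0.14, adjusted p = 0.0115). The large loader subunit Rfc1 passed the adjusted p alone, with a log2 fold change of 0.41 (adjusted p = 0.0265), and Rfc3 reached 0.41 (adjusted p = 0.0558). Rfc2 differed by 0.03 (95% interval -0.20 to 0.25), and the flap nuclease Fen1 and the DNA ligase Lig1, which join Okazaki fragments, by 0.29 and 0.40 with overlapping groups.

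Pcna has another probe set, 10461391, with a WT mean of 8.52 after natural mating and 9.77 after IVF, and an Atf7-/- mean of 9.59 and 9.38. Its WT groups were ordered as in the brightest set, but its spread was larger (SD 0.40 and 0.29 against 0.06 and 0.18), and the mean of both probe sets (log2 fold change 1.19, adjusted p = 0.0639) was no longer called for IVF in WT. PCNA has retrocopies in the mouse genome, and which copies each probe set reads was not analysed here.

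Both primase subunits rose with IVF in WT, whereas the polymerase subunits did not pass. Prim1, the catalytic subunit, read 5.91, 6.21 and 5.46 in WT natural mating and 7.15, 7.40 and 7.21 in WT IVF (log2 fold change 1.39, SE 0.39, adjusted p = 0.04997, just inside the threshold). Prim2, its partner, read 6.55, 6.70 and 6.59 and then 7.30, 7.33 and 7.27 (0.69, SE 0.16, adjusted p = 0.0254). Neither gene had overlapping groups. The polymerase epsilon subunits Pole and Pole2 gave 0.69 and 0.76, with WT IVF arrays wholly above but adjusted p of 0.194 and 0.218. For polymerase alpha, Pola1 gave 0.37 and Pola2 -0.08, and for polymerase delta, Pold1, Pold2 and Pold3 gave 0.03, 0.32 and 0.07.

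Of the helicase genes, 1 of 12 was called, although 11 of 12 fold changes were above 0 (median 0.46). Gins1, a subunit of the GINS complex that activates the helicase, read 5.79, 6.21 and 6.01 in WT natural mating and 6.94, 7.27 and 6.48 in WT IVF (log2 fold change 0.89, SE 0.22, adjusted p = 0.0300). The other GINS genes, Gins2, Gins3 and Gins4, gave 0.41, 0.19 and 0.23. Mcm6, a helicase subunit, lay just outside the threshold. It read 7.09, 7.52 and 7.36 and then 8.12, 8.66 and 8.31 (1.04, SE 0.29, adjusted p = 0.0505), without overlap. Mcm5 read 6.83, 7.63 and 7.56 and then 7.84, 8.22 and 7.86 (0.63, SE 0.27, adjusted p = 0.179), and Mcm2 read 6.77, 7.46 and 7.0 and then 7.42, 7.81 and 7.53 (0.51, SE 0.23, adjusted p = 0.209). The Mcm5 groups were apart and the Mcm2 groups overlapped, and in both genes the WT natural mating arrays spanned more than the WT IVF arrays. Mcm7, Mcm4 and Mcm3 gave 0.74, 0.51 and 0.36, and the helicase activator Cdc45 gave 0.24. Mcm10, which helps start the fork, went the other way at -0.27 (95% interval -0.53 to -0.01, adjusted p = 0.19).

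Orc6, a subunit of the origin recognition complex, was the one licensing gene called. It read 6.64, 6.89 and 7.0 in WT natural mating and 7.36, 7.73 and 7.25 in WT IVF (log2 fold change 0.60, SE 0.16, adjusted p = 0.0411). The other licensing genes ranged from 0.02 for Cdc6 to 0.37 for Orc2. The 3 subunits of replication protein A, which coats single-stranded DNA, gave 0.25 (Rpa1), 0.26 (Rpa2) and 0.49 (Rpa3), with no overlap of groups and adjusted p from 0.0692 to 0.218.

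Among the deoxynucleotide enzymes, Rrm1, the large subunit of ribonucleotide reductase, rose from 7.61, 8.14 and 7.86 to 8.81, 9.0 and 8.94 (log2 fold change 1.05, SE 0.29, adjusted p = 0.0490). Rrm2, the small subunit whose level limits the enzyme in cycling cells, read 6.49, 7.05 and 6.91 and then 7.77, 7.92 and 7.87. That was nearly the same fold change, 1.04, but with a larger SE of 0.39 and an adjusted p of 0.132. The SE is shared over the 4 groups, and the Atf7-/- IVF arrays of Rrm2 were widely spread (SD 1.06). Thymidylate synthase, Tyms, read 7.85, 7.83 and 7.53 and then 8.33, 8.38 and 8.35 (0.62, SE 0.26, adjusted p = 0.174), and here too all WT IVF arrays lay above. Tk1, the salvage thymidine kinase, read 8.43, 8.39 and 8.74 and then 8.18, 8.62 and 8.30 (-0.15, SE 0.15, adjusted p = 0.56), with overlapping groups. Another, dimmer Tk1 probe set went the other way, with a WT mean of 7.98 after natural mating and 8.12 after IVF.

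**Figure D4:**
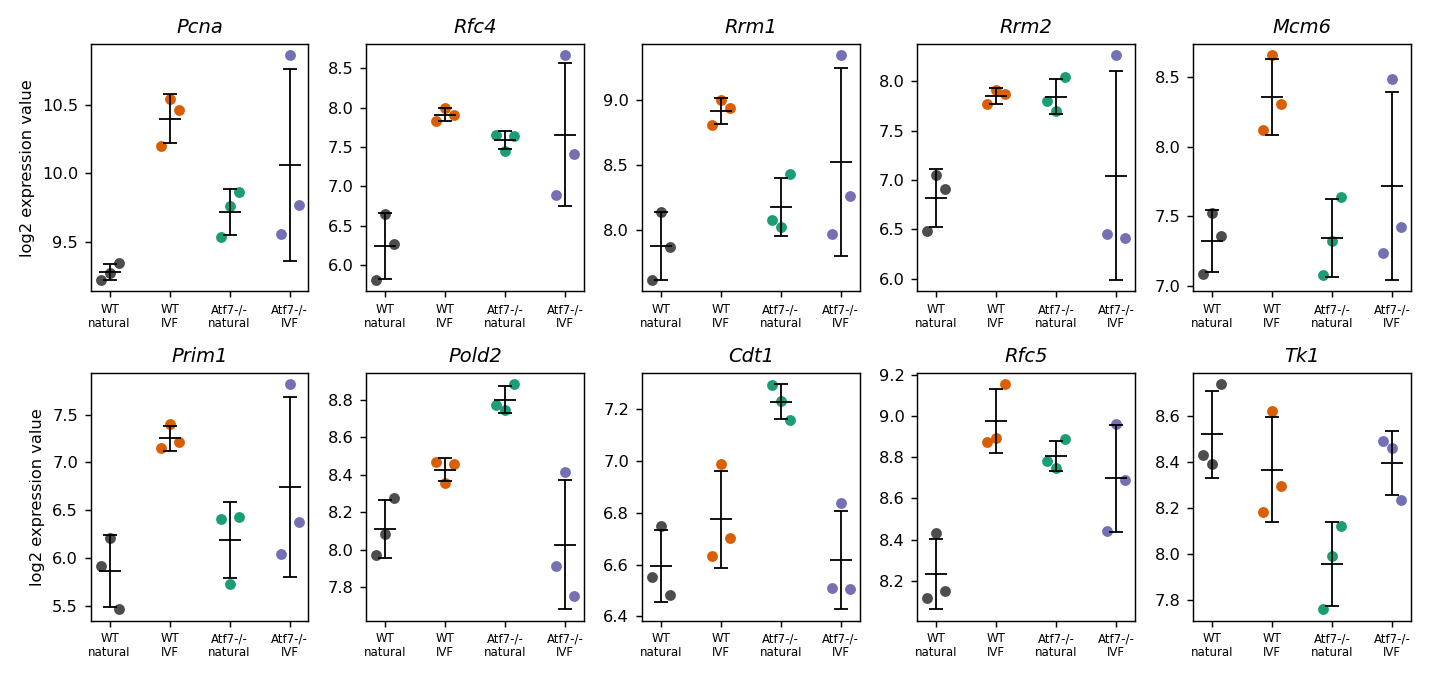
Log2 expression values (vertical axis, a different range in each panel) of 10 genes on each array (points) with the group mean and SD (black bars, n = 3). In WT, Pcna, Rfc4, Rrm1, Rrm2, Mcm6 and Prim1 lie higher with IVF, Pold2 and Cdt1 are highest in Atf7-/- natural mating, and 1 array of Atf7-/- IVF (replicate 2) lies far above the other two in Rrm2 at 8.26 against 6.45 and 6.41.

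These calls rested on all 6 arrays. With any 1 of the WT arrays left out, 1 to 3 of the 42 genes were called for IVF in WT (1 when the array left out was WT IVF replicate 1 or 2 or WT natural mating replicate 1, 2 when it was WT IVF replicate 3, and 3 when it was WT natural mating replicate 2 or 3). The share of all genes called in these fits was not taken, so whether the lower counts were particular to these genes was not tested. Rfc5 kept its call without each of the 6 arrays (adjusted p at most 0.0471), while Prim1, Prim2, Pcna and Rrm1 lost theirs without any one of them (adjusted p from 0.0509 to 0.132). Over the same fits the median fold change of the 42 genes stayed between 0.32 and 0.47.

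In these 42 genes the Atf7-/- IVF livers differed among themselves far more than the livers of the other groups. The median SD of the 42 genes was 0.33 in Atf7-/- IVF, 0.19 with WT natural mating, 0.13 for WT IVF and 0.12 with Atf7-/- natural mating, whereas the median over 19937 genes was 0.13, 0.14, 0.11 and 0.10 in the same order. A range of at least 1 log2 unit among the 3 arrays occurred for 12 of the 42 genes in Atf7-/- IVF and for 0 in each other group. Over all genes such a range occurred in 1.26% in Atf7-/- IVF and in 2.08% in WT natural mating. The shares were 0.416% in WT IVF and 0.517% in Atf7-/- natural mating, so over all genes WT natural mating had the largest. Replicate 2 of Atf7-/- IVF was the highest array of its group for 38 of the 42 genes, against 32.8% of all genes. It was the highest of all 12 arrays for 25, against 8.23% of all genes. Its lead over the next array of the group had a median of 0.46 and was at least 1 in 10 of the 42 genes, against 0.567% of all genes. In each other group, too, 1 array was highest for most of the 42 genes. These were WT natural mating replicate 2 (31 genes), WT IVF replicate 2 (30) and Atf7-/- natural mating replicate 3 (29). Of the 19937 genes, those arrays were highest of their group in 5709, 7252 and 6229.

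The lead of replicate 2 was widest in Rrm2, which read 6.45, 8.26 and 6.41 on the 3 Atf7-/- IVF arrays. Prim1 read 6.04, 7.81 and 6.38, Rfc4 read 6.89, 8.67 and 7.42, and Pcna read 9.55, 10.86 and 9.77. Rrm1 followed with 7.97, 9.35 and 8.26, Tyms with 7.62, 8.78 and 7.59, and Mcm6 with 7.24, 8.49 and 7.43. In each of these genes replicates 1 and 3 lay below all WT IVF arrays, and replicate 2 lay above all WT IVF arrays except for Mcm6. Mcm10, Pola2, Rpa3 and Tk1 were the genes in which replicate 2 was not the highest of its group. Tk1, for one, read 8.49, 8.46 and 8.24.

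Other lists moved with this array. The 24 mitosis genes read -0.62, 0.79 and -0.55 as mean deviations on the Atf7-/- IVF arrays, with replicate 2 highest for 24 of 24. A lead of 1 array in this list was not confined to that group. In Atf7-/- natural mating the mitosis genes read -0.02, -0.34 and 0.69, with replicate 3 highest for 24 of 24. Among the cell marker lists in Atf7-/- IVF, the 12 Kupffer cell and macrophage markers read -0.14, 0.06 and -0.25, with replicate 2 highest for 11 of 12. The 13 erythroid markers read 0.15, 0.04 and 0.05 and the 12 stellate cell and fibroblast markers 0.14, 0.15 and 0.12, and the 12 neutrophil and myeloid progenitor markers, at 0.44, -0.19 and 0.29, were lowest on replicate 2 for 12 of 12. The 8 hepatocyte markers read 0.02, 0.01 and 0.10, and replicate 2 was the highest array for 4 of 13 lymphocyte, 3 of 10 sinusoidal endothelial and 0 of 5 cholangiocyte markers. Over all 19937 genes the array did not stand apart in level, and its correlation with the other arrays of its group was 0.984 and 0.987. The part of cell composition in the reading of this array was not tested.

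IVF in Atf7-/- mice raised 1 of the 42 genes, Gins1, and lowered 2, Cdt1 and Pold2. In this comparison 2.31% of all genes were called higher and 4% lower, so the shares of the 42 genes were near the background. The median fold change was 0.08 against -0.0068 over all genes, and 29 of 42 were above 0. The Atf7-/- IVF arrays lay wholly above the Atf7-/- natural mating arrays for 8 genes and wholly below for 4, and 30 overlapped (15.3% of all genes lay wholly above and 19.3% wholly below). Pold2, an accessory subunit of polymerase delta, read 8.77, 8.75 and 8.88 in Atf7-/- natural mating and 7.91, 8.42 and 7.75 in Atf7-/- IVF (log2 fold change -0.77, SE 0.15, adjusted p = 0.00722). Cdt1, the licensing factor that brings the helicase to origins, read 7.29, 7.23 and 7.16 and then 6.51, 6.84 and 6.51 (-0.61, SE 0.13, adjusted p = 0.00932). For both genes even the high replicate 2 lay below all natural mating arrays. Gins1 read 6.03, 5.84 and 6.10 and then 6.51, 7.17 and 6.59 (0.77, SE 0.22, adjusted p = 0.0389).

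Below the fold threshold, Orc2 (0.43), Rpa2 (0.48) and Gmnn (0.52), the gene of geminin, which binds CDT1 and blocks relicensing, passed the adjusted p upward, and Pola2 (-0.42), the regulatory subunit of polymerase alpha, passed it downward. The genes that led the WT comparison did not pass here. Rfc4 gave 0.07 (95% interval -0.72 to 0.87), Pcna 0.34 (-0.25 to 0.94), Prim1 0.56 (-0.30 to 1.41) and Rrm1 0.35 (-0.29 to 0.99). The SD of these 4 genes in Atf7-/- IVF ran from 0.70 to 0.94. Tk1 gave 0.44 (adjusted p = 0.0767), with Atf7-/- IVF wholly above the 7.76, 7.99 and 8.12 of Atf7-/- natural mating. In the dimmer Tk1 probe set the gap was smaller, with Atf7-/- means of 8.09 after IVF and 7.91 after natural mating.

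Leaving out replicate 2 of Atf7-/- IVF changed the calls. The group then held 2 arrays, and its spread was taken to be that of the other groups. Replicate 2 was singled out because these same genes were high on it, so lower values without it are built into the choice. Gins1 lost its call (0.56) and 0 genes were higher, while 3 were lower: Cdt1 (-0.72), Pold2 (-0.97) and Rrm2 (-1.41, SE 0.16, adjusted p = 0.00117). In the same fit 2.84% of all probe sets were called higher and 3.32% lower. The median fold change of the 42 genes went from 0.08 to -0.09, and 28 of 42 were below 0. Pold2 kept its call for IVF in Atf7-/- without each of the 6 arrays of the comparison (adjusted p at most 0.0309). Cdt1 kept its call without Atf7-/- IVF replicate 2 or Atf7-/- natural mating replicate 2 or 3, and fell short of the fold threshold without the others (-0.55 at the smallest). Gins1 was called in the other fits only without Atf7-/- IVF replicate 1.

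ATF7 loss in naturally conceived mice raised 3 of the 42 genes, Rfc4, Pold2 and Cdt1, and lowered 0. The background here was 4.31% of all genes higher and 1.9% lower. The median was 0.15 against 0.0042 over all genes, with 30 of 42 above 0. The Atf7-/- arrays lay wholly above for 12 genes and wholly below for 3, against 19% and 14.3% of all genes. Rfc4 was 7.66, 7.45 and 7.64 in Atf7-/- natural mating against the 5.81, 6.65 and 6.27 of WT natural mating (log2 fold change 1.34, SE 0.36, adjusted p = 0.0307). Pold2 stood at 8.77, 8.75 and 8.88 against 7.97, 8.09 and 8.28 (0.69, SE 0.15, adjusted p = 0.0121), and Cdt1 at 7.29, 7.23 and 7.16 against 6.55, 6.75 and 6.48 (0.63, SE 0.13, adjusted p = 0.00713). None of the 3 genes had overlapping groups. Rrm2 gave 1.03, as all Atf7-/- natural mating arrays (7.80, 7.70 and 8.04) lay above all WT natural mating arrays, but its adjusted p was 0.117.

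Other genes passed the adjusted p in this comparison below the fold threshold. Rfc5 was upward at 0.57 (adjusted p = 0.0206). Downward were Tk1 at -0.56 (adjusted p = 0.0269), Gmnn at -0.53 (adjusted p = 0.0211) and Rpa2 at -0.41 (adjusted p = 0.0476). Tk1 read 7.76, 7.99 and 8.12 in Atf7-/- natural mating against 8.43, 8.39 and 8.74 in WT, and Gmnn read 5.12, 5.34 and 5.15 against 5.51, 5.89 and 5.80, both without overlap. The dimmer Tk1 probe set differed less, with means of 7.91 and 7.98. Tyms read 7.44, 7.63 and 7.87 (log2 fold change -0.09) and Pcna 9.53, 9.76 and 9.86 (0.44, adjusted p = 0.345). Prim1, at 6.41, 5.73 and 6.43, overlapped WT natural mating. Pold2 was called without each of the 6 arrays (adjusted p at most 0.0495), Cdt1 in 4 of the 6 fits and Rfc4 in 1 (without WT natural mating replicate 2). This comparison and IVF in WT share the WT natural mating arrays, and it shares the Atf7-/- natural mating arrays with IVF in Atf7-/-, so these comparisons are not independent of each other.

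ATF7 loss in IVF-conceived mice called 0 of the 42 genes in either direction. By limma, 0 genes passed upward and 2 (Mcm6 at -0.65 and Pold2 at -0.40) passed downward at an unadjusted p under 0.05, and their adjusted p were 0.81 and 0.783. At that unadjusted threshold 436 of all 19937 genes passed upward and 533 downward. Few genes of any kind were called in this comparison, 0% higher and 0.00502% lower. The groups overlapped in all 42 genes, against 5.15% of all genes wholly above and 5.39% wholly below. The fold change was below 0 in 37 of 42 genes, with a median of -0.18 against -0.00087 over all genes. Rrm2 gave -0.81 (95% interval -1.68 to 0.06). Without replicate 2 of Atf7-/- IVF, 41 of 42 genes were below 0 and the median was -0.35. Rrm2 was then called lower (-1.42, SE 0.16, adjusted p = 0.0411), with 0.0173% of all probe sets called lower. Here too, the array was left out for its high values in these genes, so a downward shift is built into the choice.

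**Figure D5:**
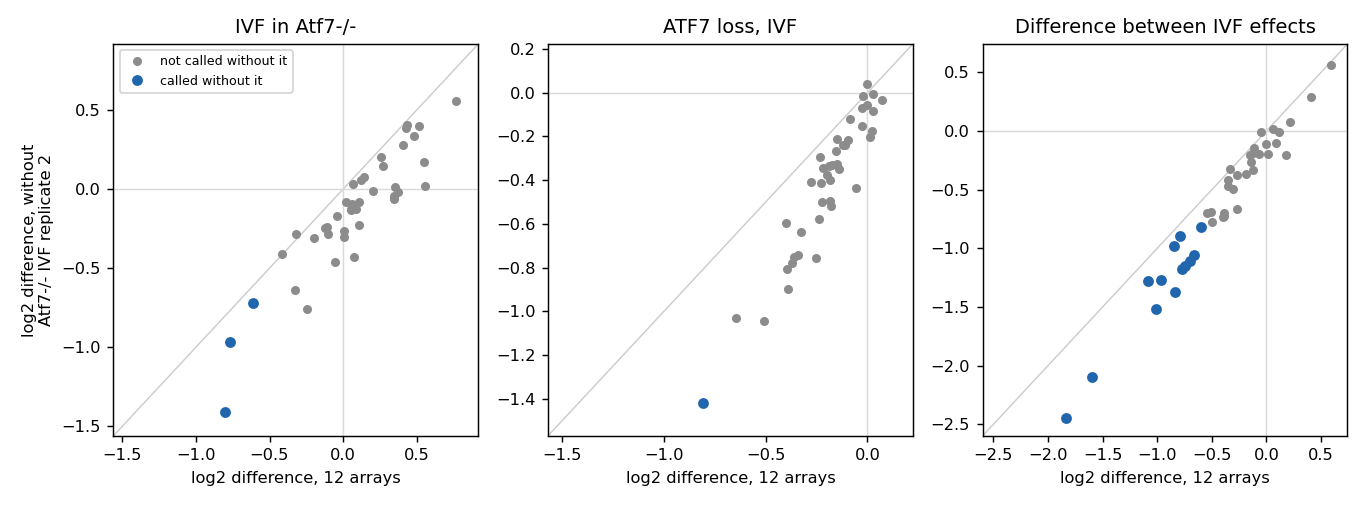
Log2 difference of each of the 42 genes with all 12 arrays (horizontal axis) and without Atf7-/- IVF replicate 2 (vertical axis) for IVF in Atf7-/-, ATF7 loss with IVF and the difference between the IVF effects. Points under the grey diagonal moved down when the array was left out, and blue points were called without it, 3 in the left panel, 1 in the middle and 13 in the right, all below 0.

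The IVF effect differed by genotype in 3 of the 42 genes. The difference, IVF effect in Atf7-/- minus IVF effect in WT, was tested as an interaction. By that test 0 genes were higher, and Pold2, Rfc5 and Cdt1 were lower. Of all genes 1.47% were higher and 4.23% lower, so these counts lay near the background. Pold2 differed by -1.09 (SE 0.21, adjusted p = 0.0135), from 0.32 in WT and -0.77 in Atf7-/-. Rfc5 differed by -0.85 (SE 0.20, adjusted p = 0.0282), from 0.74 in WT and -0.11 in Atf7-/-, where its arrays read 8.78, 8.75 and 8.89 and then 8.44, 8.96 and 8.69. Cdt1 differed by -0.79 (SE 0.18, adjusted p = 0.0244), from 0.18 and -0.61. Pold2 and Cdt1 were highest in Atf7-/- natural mating, and Rfc5 was lowest in WT natural mating. Rrm2 had the largest difference at -1.84 (SE 0.56) and Rfc4 the next at -1.60 (SE 0.51), but their adjusted p were 0.0746 and 0.0882. Tk1 and Gmnn had the largest positive differences, 0.59 and 0.41, and did not pass. For Tk1 this value was that of its brightest probe set. The dimmer Tk1 set had WT means of 7.98 (natural mating) and 8.12 (IVF), and Atf7-/- means of 7.91 and 8.09. Its means were thus slightly higher after IVF in both genotypes.

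The difference was below 0 in 34 of 42 genes, with a median of -0.34 against 0.0019 over all genes. Pold2 kept its call without each of the 12 arrays (adjusted p at most 0.0374), and Cdt1 and Rfc5 each in 6 of the 12 fits. The count changed most without replicate 2 of Atf7-/- IVF. That array had been singled out for high values in these same genes, so more lower calls without it are built into the choice. Such calls are no separate support for a difference. With it left out, 13 of the 42 genes were called lower, when 4.22% of all probe sets were. They were Rrm2 (-2.45), Rfc4 (-2.10), Pole2 (-1.52), Prim1 (-1.37), Pold2 (-1.28), Mcm5 (-1.27), Pcna (-1.18), Pole (-1.15), Rrm1 (-1.11), Mcm6 (-1.05), Rfc5 (-0.98), Cdt1 (-0.90) and Prim2 (-0.81). The median then was -0.48. Leaving out Atf7-/- IVF replicate 3, Atf7-/- natural mating replicate 1 or 2 or WT natural mating replicate 1 left 1 called gene.

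Other genes of replication and the cell cycle were read as 4 further lists. In IVF in WT, 4 of 34 other replication factors were higher and 0 lower: Tipin (log2 fold change 0.81), which protects stalled forks, the helicase gene Mcm8 (0.70), the histone chaperone Asf1a (0.67) and the origin recognition subunit Orc5 (0.65). Their list had a median of 0.26. Of all genes 3.27% were called higher in this comparison. Of 29 S phase kinases, cyclins and E2F factors, 1 was higher, the pocket protein gene Rbl1 (0.90), a share near that background, and the median was 0.08. Of 17 other deoxynucleotide enzymes, 2 were higher, the nucleoside diphosphate kinase Nme3 (0.72) and thymidylate kinase Dtymk (0.67). Of 24 mitosis genes, 4 were higher and 0 lower, with a median of 1.05: Bub1 (1.84) and Nuf2 (1.27) of the spindle checkpoint and kinetochore, and the spindle proteins Hmmr (1.65) and Nusap1 (1.53). The mitosis median was larger than that of the replication genes in this comparison, and 24 of 24 were above 0.

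In IVF in Atf7-/-, the topoisomerase Top2b (0.65) was the 1 of 34 other replication factors called, and cyclins Ccnd1 (-1.39) and Ccnd3 (-0.70) and the repressor E2f8 (-1.15) were the 3 of 29 S phase regulators called, against 2.31% of all genes higher and 4% lower. E2f8 read 7.60, 7.82 and 7.98 in Atf7-/- natural mating and 6.34, 7.35 and 6.26 in Atf7-/- IVF. ATF7 loss with natural mating raised 1 of 29 S phase regulators, E2f8 (1.43), and 2 of 17 deoxynucleotide enzymes, Nme3 (1.16) and the cytidine deaminase Cda (0.93). It raised 1 of 24 mitosis genes, the kinase Aurka (0.72), and 0 of 34 other replication factors, where 4.31% of all genes were higher. The mitosis median there was 0.73, with 23 of 24 genes above 0, but the arrays of Atf7-/- natural mating were not alike. The mitosis list read -0.02, -0.34 and 0.69 on them, against -0.47, -0.28 and -0.87 in WT natural mating. Replicate 2 lay within the WT range, and replicate 3 stood highest. ATF7 loss with IVF called 0 genes of these 4 lists, while 24 of 24 mitosis genes were below 0 (median -0.72).

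Markers of other liver cells were set beside these results, and their part in them was not tested. For IVF in WT, 3.27% of all genes were called higher and 0.953% lower. For IVF in WT, the 8 hepatocyte markers had 0 called genes and a median of 0.05, and the 13 erythroid markers 0 called and a median of 0.03. The 12 neutrophil and myeloid progenitor markers had 0 called (median -0.02), and 1 of 13 lymphocyte markers was higher (median 0.10). The 12 stellate cell and fibroblast markers had 1 higher gene and a median of 0.40, with mean deviations of -0.27, -0.11 and -0.54 in WT natural mating and -0.01, 0.22 and 0.02 in WT IVF, so this list moved with the replication genes in WT. In Atf7-/- natural mating it read -0.05, 0.23 and 0.10 and in Atf7-/- IVF 0.14, 0.15 and 0.12. The 12 Kupffer cell and macrophage markers had 1 lower gene and a median of -0.31 for IVF in WT. With ATF7 loss under natural mating 4 were lower and 1 higher (median -0.37), against 1.9% of all genes lower and 4.31% higher. Of 10 sinusoidal endothelial markers 1 was higher with IVF in WT (median 0.14), and of 5 cholangiocyte markers 0 were called (median 0.15).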

How the data were processed

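Liver RNA of 12 male mice was measured on Affymetrix Mouse Gene 1.0 ST arrays. The authors extracted RNA with TRIzol, labelled it with Ambion and Affymetrix whole-transcript kits, normalized the scans with RMA in the affy package and deposited 1 log2 value for each probe set. These values were taken as they stand. RMA pulls low values together, so changes of dim genes read small. For RMA and affy no version is known, nor any filter or build (not given in the sources used here). The sample labels give the age as 4 weeks and the article as 3 weeks.

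Of 34760 probe sets, 21640 name 1 gene, 1321 several and 11799 none, and only the first were named, with 21553 found in a RefSeq table. A linear model in limma 3.58.1 (R 4.3.3) had 4 group means over 12 arrays (8 residual degrees of freedom) and 5 contrasts. Adjusted p-values run over all 34760 probe sets. The replicates are separate mice, and their number limits the precision. The model code was first tested on simulated arrays.

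The 42 genes and the lists of other genes and cell markers were chosen with earlier results of these data known. All 42 genes could be named. Those called in a contrast, and Pcna, Mcm2, Mcm5, Rrm1, Rrm2, Tyms and Tk1 in any case, are given array by array, and of each other list up to 4 called genes with the largest changes. Mcm6 is given array by array as the gene just outside the threshold, which was chosen after its values were seen. Alternatives were other thresholds, a filter on dim probe sets, averaging a gene's probe sets, median centring, robust variances with an intensity trend, array weights, only the groups compared, a replicate block and each array left out. Figures used Python 3.11.15, pandas 2.3.3, numpy 2.4.6 and matplotlib 3.10.9.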

Additional observations from a re-analysis of the deposited data

Results flagged for a closer look

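The IVF effect differed between genotypes, by limma's test of the difference itself, in 3 of the 42 genes, 2 of 29 S phase regulators, 2 of 17 other deoxynucleotide enzymes and 0 of 34 other replication factors. Over all genes 4.23% were lower and 1.47% higher, so counts this small lay near the background. Of 24 mitosis genes 0 were called, though 24 of 24 differences were below 0 (median -1.38). Among the 42 genes the called ones were Pold2 (-1.09 log2, Atf7-/- minus WT), Rfc5 (-0.85) and Cdt1 (-0.79). Among the other lists they were E2f8 (-2.0, SE 0.37, adjusted p = 0.0101), Nme3 (-1.25, SE 0.18, adjusted p = 0.00347), Ccnd3 (-0.68, SE 0.14, adjusted p = 0.0159) and the pyrophosphatase gene Dctpp1 (0.64, SE 0.14, adjusted p = 0.0205). Nme3 read 7.97, 8.0 and 7.53 in naturally conceived WT mice, 8.51, 8.47 and 8.68 in WT IVF, 9.06, 8.95 and 8.98 in Atf7-/- natural mating and 8.45, 8.60 and 8.34 in Atf7-/- IVF, so both IVF groups lay between the natural mating groups. Dctpp1 was the one higher gene, at 8.54, 8.41 and 8.62 in Atf7-/- natural mating and 9.19, 9.14 and 9.0 in Atf7-/- IVF, with WT arrays from 8.92 to 9.21. Ccnd3 was high in Atf7-/- natural mating, at 8.5, 8.24 and 8.51, while the other groups ran from 7.62 to 7.86. With one array left out at a time, Pold2 was called in 12 of 12 fits and Cdt1 and Rfc5 each in 6 of 12. The genes of the other lists were not refitted in this way.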

How the results depend on the processing

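Of 26 gene results with an adjusted p of at most 0.05, recomputed under the alternatives that could be run for each (351 values; Gmnn is not among the brighter probe sets), 0 changed direction and 246 values kept an adjusted p of at most 0.05. Counts of called genes moved most with the thresholds and the arrays. With no fold threshold, 4 of the 42 genes were higher for IVF in Atf7-/-, as were 1148 of all 19937 genes. For ATF7 loss with natural mating 3 of the 42 were lower, as were 973 of all 19937. At a log2 fold change of at least 1, 4 were higher for IVF in WT, 0 higher and 0 lower for IVF in Atf7-/-, 1 higher for ATF7 loss with natural mating and 1 lower for the difference between IVF effects. Among probe sets above the median level, which held 37 of the 42 genes, 5 were lower for that difference. Leaving out one array at a time gave 1 to 3 genes higher for IVF in WT, 0 to 2 higher and 1 to 3 lower for IVF in Atf7-/-, 1 to 4 higher and 0 to 2 lower for ATF7 loss with natural mating, 0 to 1 lower for ATF7 loss with IVF and 1 to 13 lower for the difference. A fit of only the groups compared called 10 genes for IVF in WT, 6 of them among the 8 (not run for the difference). Under these fits the medians ranged from 0.32 to 0.47 for IVF in WT and from -0.48 to -0.22 for the difference. Samples of a replicate number did not deviate together (r from -0.12 to 0.24, over 0.1 in 3 of 18 pairs), so the numbers were not taken to pair mice. With the replicate block, 8 genes were higher for IVF in WT (7 of the 8 above), 1 higher and 2 lower for IVF in Atf7-/-, 3 higher for ATF7 loss with natural mating, 0 for ATF7 loss with IVF and 3 lower for the difference. The causes of these changes were not tested. Matching counts over all genes or probe sets were taken only with no fold threshold and without Atf7-/- IVF replicate 2. The counts under the other alternatives therefore have no background beside them. Median centring, which shifts IVF in WT by under 0.1, changed no direction.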
